A study of Mus musculus with 6 samples.

Results

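Keratins are the epithelial members of the intermediate filament family. Each filament is built from pairs of an acidic type I and a basic type II keratin, so a cell makes at least one of each. In the mammary gland the simple keratins Krt8, Krt18 and Krt19 mark luminal cells, Krt5 and Krt14 mark the basal, myoepithelial layer, and the keratins Krt1 and Krt10 belong to the suprabasal layers of the epidermis. Krt6a, Krt6b, Krt16 and Krt17 are made in hair follicles and in wounded or fast-growing stratified epithelium.

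The keratin gene family was taken as every gene whose platform symbol is Krt followed by a number, with at most 1 letter after it, leaving out the keratin-associated proteins. Of 22180 genes with a probe set naming 1 gene, 53 met this rule, 28 of type I and 25 of type II, and the brightest probe set stood for each gene. They comprised 5 simple, 2 basal, 4 stress, 5 epidermal suprabasal, 7 other stratified, 9 inner root sheath, 15 hair shaft and 6 other keratins. Krt5 and Krt85 had no probe set of their own and were not analysed here, so the basal class held only Krt14 and Krt15.

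Values were log2 expression (RMA) on 6 microarrays of mouse RNA. The tumor group held mammary tumors 23, 24 and 25 from Trp53L/L;Brca1L/L females, called null for both genes by the labels, which had been injected intraductally with Ad-K8-Cre several months earlier. The wild-type group held replicates 1, 2 and 4, each of YFP+ luminal epithelial cells from a different Rosa26-Stop-YFP female with wild-type Trp53 and Brca1 per the labels, sorted 10 to 14 days after the same virus. Both groups therefore received Cre recombinase from an adenovirus under a keratin 8 promoter, and activity of that promoter was part of how the wild-type cells were marked and sorted. Sorting is not described for the tumors, which can hold cells of the host's stroma, and ages are not given. The labels do not say that each tumor came from an animal of its own, so p-values may in part rest on pieces of the same animal.

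Olfactory receptor genes, silent in most tissues, gave a mark for background: the 95th percentile of 1105 of them, array by array. This mark ran from 3.24 to 3.45 on tumor arrays and from 3.70 to 3.86 on wild-type arrays. On all 6 arrays, 19 keratins lay above it and 21 below it. The sorted cells carried the luminal label's markers: Krt8 and Krt18 lay above 10 on every wild-type array, and the epithelial adhesion gene Epcam measured 8.05, 8.31 and 8.31. They also held RNA of a basal keratin, with Krt14 at 8.48 to 9.27, while the basal transcription factor Trp63 measured 3.93, 3.41 and 4.14, close to the mark. Of 10 myoepithelial genes other than keratins, Trp63 included, 7 lay above the mark on all 6 arrays. Among these, Acta2 measured 7.92, 7.04 and 7.77 in wild-type cells. The fibroblast gene Dcn measured 10.10, 11.11 and 10.87 there, and the adipocyte gene Fabp4 10.75, 10.84 and 8.61. Above the mark on all 6 arrays were 7 of 10 fibroblast and 1 of 7 adipocyte genes. Which cells carried the Krt14 RNA was not tested. Epcam was present in the tumors too, at 8.09, 7.18 and 6.99 in tumors 23, 24 and 25.

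RefSeq promoter windows (GRCm38.p6) of 5 genes are given, to show what stands around the annotated start of some of the keratins. Each runs from 250 bases before to 50 after the annotated start, 5′ to 3′ on the gene's strand. The genes are the luminal pair Krt8 and Krt18, the basal Krt14, and Krt23 and Krt79, which were higher in tumors. No window was available for Krt19, Krt17, Krt16 or Krt6a, on which the results also turn. Capitals mark matches of TATAAA on either strand. The windows are chr15:102004293-102004592 (minus strand) for Krt8, chr15:102027966-102028265 (plus strand) for Krt18, chr11:100205981-100206280 (minus strand) for Krt14, chr11:99493071-99493370 (minus strand) for Krt23 and chr15:101940275-101940574 (minus strand) for Krt79.
Krt8: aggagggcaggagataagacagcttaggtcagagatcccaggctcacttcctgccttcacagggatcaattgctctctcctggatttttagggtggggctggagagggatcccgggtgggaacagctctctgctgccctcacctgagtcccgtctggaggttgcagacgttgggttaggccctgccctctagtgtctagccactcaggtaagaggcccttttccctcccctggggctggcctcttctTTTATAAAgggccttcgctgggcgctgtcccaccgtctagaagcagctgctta
Krt18: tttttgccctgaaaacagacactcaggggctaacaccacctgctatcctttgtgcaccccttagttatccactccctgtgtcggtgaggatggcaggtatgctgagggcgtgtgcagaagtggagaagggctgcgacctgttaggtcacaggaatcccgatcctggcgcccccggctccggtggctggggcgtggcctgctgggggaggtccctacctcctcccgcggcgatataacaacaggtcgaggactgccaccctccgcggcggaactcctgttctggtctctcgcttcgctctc
Krt14: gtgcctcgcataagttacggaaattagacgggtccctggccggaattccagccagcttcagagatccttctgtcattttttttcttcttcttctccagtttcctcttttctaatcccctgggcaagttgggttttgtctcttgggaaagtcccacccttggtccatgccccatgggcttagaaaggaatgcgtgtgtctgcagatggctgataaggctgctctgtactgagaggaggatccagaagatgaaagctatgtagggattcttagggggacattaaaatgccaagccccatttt
Krt23: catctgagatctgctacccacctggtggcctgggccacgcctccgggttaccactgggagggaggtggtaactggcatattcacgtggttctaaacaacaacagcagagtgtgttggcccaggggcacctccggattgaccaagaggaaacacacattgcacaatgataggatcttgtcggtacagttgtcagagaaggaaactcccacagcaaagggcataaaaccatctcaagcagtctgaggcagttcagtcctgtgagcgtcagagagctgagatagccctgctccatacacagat
Krt79: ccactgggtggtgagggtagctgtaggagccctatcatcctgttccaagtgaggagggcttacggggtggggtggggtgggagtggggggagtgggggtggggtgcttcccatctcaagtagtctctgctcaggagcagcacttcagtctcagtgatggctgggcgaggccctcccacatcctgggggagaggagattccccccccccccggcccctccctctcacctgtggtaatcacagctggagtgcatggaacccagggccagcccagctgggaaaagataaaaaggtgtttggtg
Krt8 and Krt18, whose products pair with each other and whose genes neighbour each other, differed in these letters. The Krt8 window held TATAAA on both strands, overlapping each other, and 6 CpG dinucleotides. These matches form 1 stretch that begins 3 bases before the annotated start and runs across it. The Krt18 window held no TATAAA and 17 CpG dinucleotides. TATAAA was found in 19 of 36 windows of the 35 keratins with an entry, against 13.6% of 32851 windows of all genes. The GC box GGGCGG was in 2 of the 36, against 35.7% of all windows, and the AP-1 type motif TGANTCA in 2 of the 36, against 7.81%. None of the 5 windows shown held either of these, both strands searched. A match is a description of letters and not a site.

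In the tumors, the simple keratins measured lower than in wild-type luminal cells, Krt23 and Krt79 measured higher, and Krt14 and the stress keratins split the tumors, with tumor 24 high and tumor 25 low; the basal Krt15 lay below the wild-type arrays in all 3 tumors. Of the 53 keratins, 2 passed in limma with Benjamini-Hochberg adjustment over 22180 genes, against 3.91% of all genes. Krt79 rose by 1.24 log2 units and Krt78 fell by 1.05. The test thus called 1 keratin higher, against 2.52% of all genes, and 1 lower, against 1.39%. The larger differences of Krt19 (-4.36), Krt23 (2.84), Krt18 (-2.09) and Krt8 (-2.05) did not pass, with wide spreads between tumors. The plot of differences by class shows each keratin with its standard error.

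**Figure D1:**
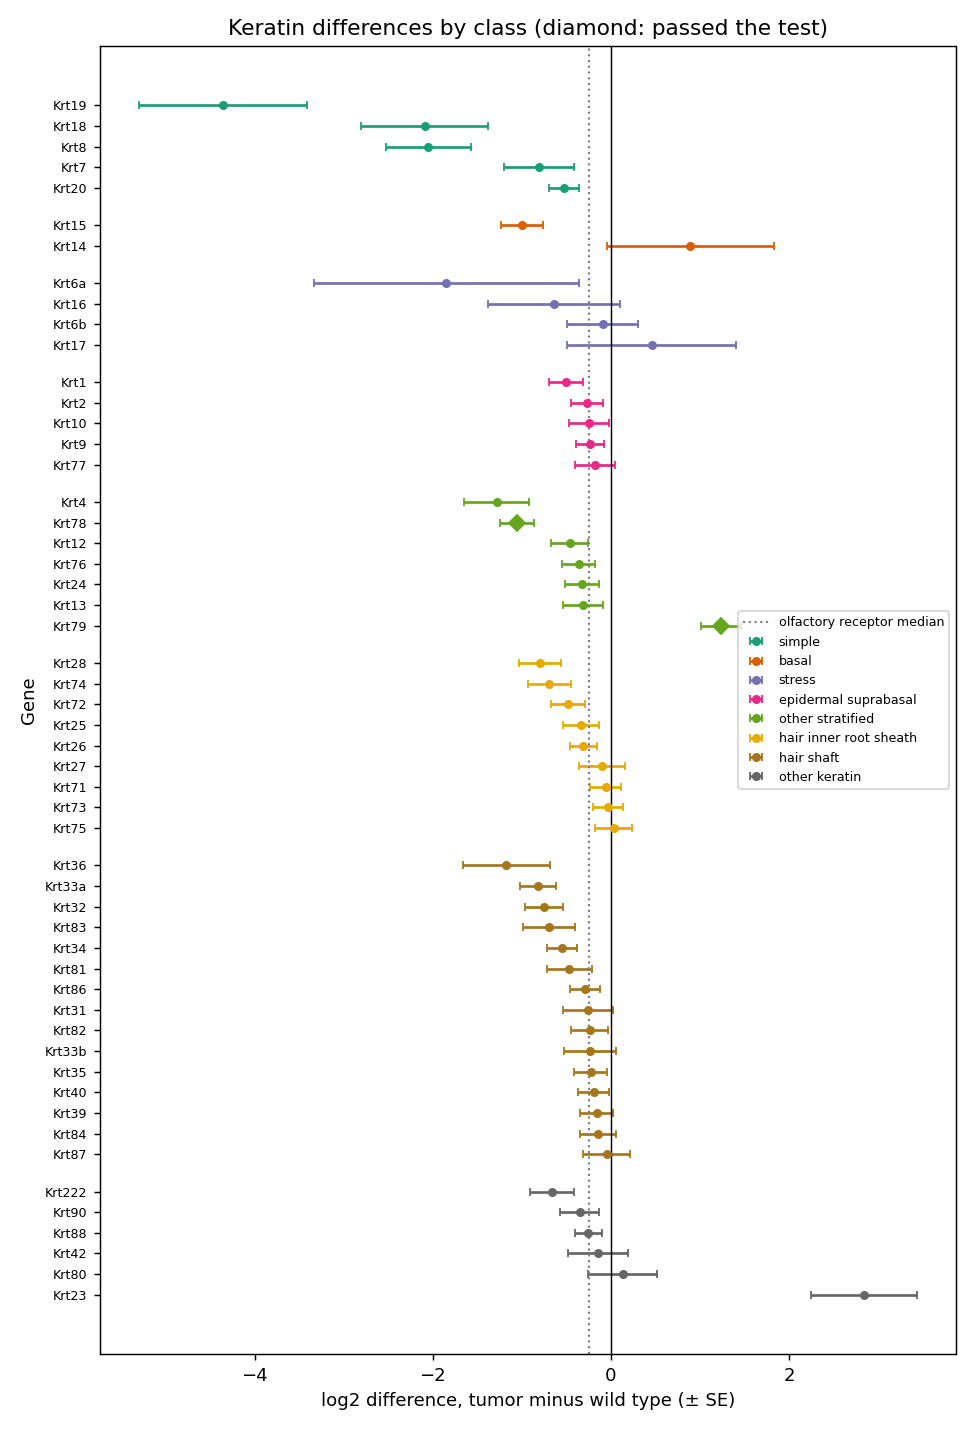
Differences of the 53 keratins in log2 units, tumor minus wild type (x axis, bars are standard errors, 3 arrays in each group), by class. Diamonds mark Krt78 and Krt79, which passed limma's test; the dotted line is the median of 1105 olfactory receptor genes (-0.25), close to the medians of the epidermal suprabasal (-0.25) and hair (-0.27) keratins.

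The simple keratins form the filaments of single-layered epithelia. Krt8, the type II simple keratin, measured 9.41, 7.76 and 9.19 in tumors 23, 24 and 25, against 10.31, 11.08 and 11.12 in wild-type replicates 1, 2 and 4. Its type I partner Krt18 measured 10.18, 7.47 and 9.72 in the tumors, against 10.58, 11.49 and 11.57 in wild-type cells. Every tumor lay below every wild-type array for both genes, and tumor 24 was the lowest. Krt8 was thus 2.05 ± 0.48 (SE) lower and Krt18 2.09 ± 0.71 lower, and neither passed in limma (adjusted p of 0.068 and 0.14). The differences were -1.54 for Krt8 and -1.26 for Krt18 without tumor 24. A dimmer probe set of Krt18 had a lower mean in tumors too, 4.24 against 5.54 in wild-type cells, but there the groups overlapped. It measured 4.54, 3.47 and 4.71 in tumors 23, 24 and 25, against 4.17, 6.73 and 5.71 in wild-type cells.

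Krt19, a type I keratin without the usual tail domain and a marker of luminal cells, had the largest difference of the 53 keratins. It measured 5.91, 4.83 and 2.05 in tumors 23, 24 and 25, against 7.997, 9.08 and 8.78 in wild-type cells. In tumor 25 it lay below the background mark of that array (3.41). Tumors averaged 4.26 ± 1.99 and wild-type cells 8.62 ± 0.56 (SD, n = 3 each), a difference of -4.36 with a 95% confidence interval from -6.62 to -2.09 (limma, adjusted p = 0.059). Without tumor 25 it passed, at -3.25 (limma, adjusted p = 0.044). With all 6 arrays it passed in limma under the filter on dim genes (adjusted p of 0.0091), repeated quantile normalization (0.044), the trended robust prior (0.035) and both centrings (0.0067 for housekeeping, 3.2e-08 for epithelial). It did not pass with cyclic loess (0.058), array weights (0.056) or averaging of probe sets (0.060). The adjusted p under epithelial centring does not measure the spread between tumors, as described below for Krt14. The tumors did not follow 1 order across the simple keratins: Krt8 and Krt18 were lowest in tumor 24, Krt19 and Krt7 in tumor 25.

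Krt7, a type II keratin of ducts and glands, measured 6.69, 5.83 and 5.10 in tumors, against 6.65, 6.60 and 6.80 in wild-type cells. Tumor 23 lay within the wild-type range and tumors 24 and 25 lay below it, a difference of -0.81 ± 0.39 (SE, adjusted p of 0.24 in limma). Krt20, known from gut and urothelium, lay below the mark on all 6 arrays. None of the 5 simple keratins passed, and their median difference was -2.05, beside -0.12 over all genes. All 5 measured highest, among the tumors, in tumor 23, as did 7050 of 22180 genes. For Krt20, under the mark, the tumor values ran only from 2.16 to 2.22.

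**Figure D2:**
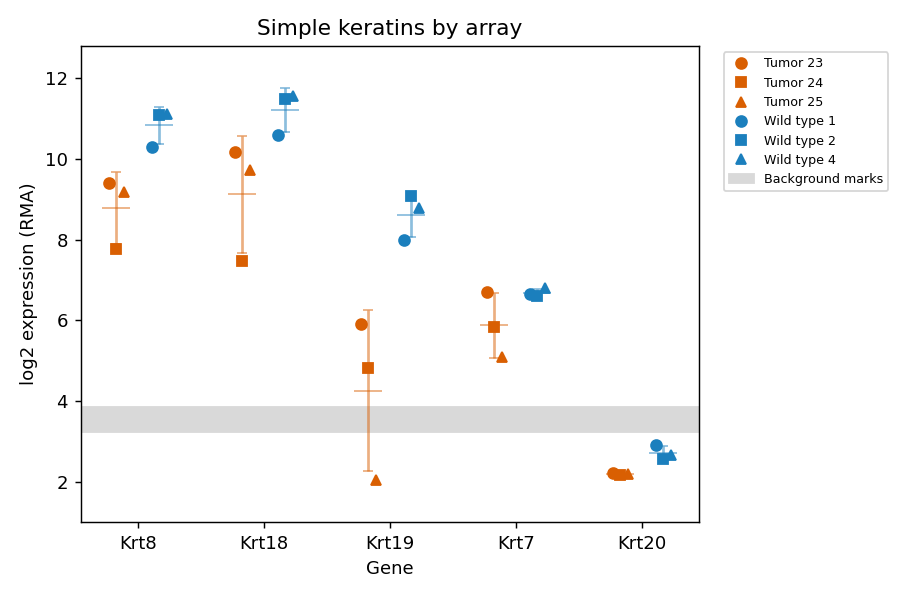
Log2 expression (RMA) of the 5 simple keratins on each array, tumors left of wild type for each gene; crossbars and whiskers are group means ± SD (n = 3 each) and the grey band spans the background marks of the 6 arrays. Krt8, Krt18 and Krt19 lie lower on all 3 tumor arrays, and Krt19 of tumor 25 lies under the band.

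Most other epithelial genes were lower in the same tumors. Of 11, 10 had lower means (58.3% of all genes did), and Rab25 was higher (0.28). The groups did not overlap for 6 of the 11, all lower, against 22.4% of all genes. The list of 11 measured epithelial genes other than keratins averaged 8.18, 7.37 and 7.89 in tumors 23, 24 and 25, against 8.54, 8.84 and 9.15 in wild-type cells. In that list Cd24a, a surface protein of luminal cells, fell by 1.80 and the protease inhibitor Spint2 by 1.47 (adjusted p of 0.039 and 0.018 in limma). The other 9 did not pass, and 1.39% of all genes were called lower. The median difference of the list was -1.18. Lists for other cell types did not share 1 direction. Macrophage genes averaged 7.29, 6.89 and 6.41 in tumors, against 4.75, 4.63 and 3.95 in wild-type cells. Of 10, 7 were called higher, against 2.52% of all genes. Among them were the complement genes C1qa (4.09) and C1qb (4.03), the growth factor receptor Csf1r (2.67) and the Fc receptor chain Fcer1g (2.52). Fibroblast genes averaged 6.70, 7.37 and 6.17 in tumors, against 5.97, 5.49 and 5.45 in wild-type cells. Of 10, Fbln2 (2.96) and Pdgfrb (2.56) were called higher, as were 2.52% of all genes. One member, the matrix proteoglycan decorin (Dcn), named after its values were seen, ran the other way, at 9.16, 7.52 and 7.11 in tumors, against 10.10, 11.11 and 10.87 in wild-type cells (limma, adjusted p = 0.052). In bulk tumor RNA, fewer epithelial cells and less keratin RNA per cell cannot be told apart. When each array was centred on the epithelial list, the differences were -1.02 for Krt8, -1.06 for Krt18 and -3.33 for Krt19, and 0.22 for Krt7.

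The basal keratins form the filaments of the layer that rests on the basement membrane. Krt14 measured 10.11, 11.64 and 7.63 in tumors 23, 24 and 25, against 9.27, 8.48 and 8.95 in wild-type cells. Tumors 23 and 24 lay above and tumor 25 below every wild-type array. The tumor mean did not differ beyond this spread (0.89 ± 0.94, SE, adjusted p of 0.54 in limma), with an SD of 2.02 over tumors and 0.40 over wild-type arrays. Krt15, a type I keratin of basal keratinocytes and of the hair follicle bulge, measured 4.51, 5.18 and 5.09 in tumors, against 5.99, 6.09 and 5.70 in wild-type cells. All 3 tumors were lower, by 1.00 ± 0.24 (SE; limma, adjusted p = 0.073). Under the alternative normalizations Krt15 passed downward in limma, at -1.31 with repeated quantile normalization (adjusted p of 0.042) and at -1.28 with cyclic loess (0.048), as it did after housekeeping centring (-1.62, 0.020). Centred on the epithelial list, Krt15 was at 0.03 (0.96), while Krt14 (1.92, adjusted p = 0.0013) and the stress keratin Krt17 (1.49, adjusted p = 0.014) passed upward in limma. Calls under that centring are relative to a list that was itself lower in tumors, and 9033 of 22180 genes passed. Its adjusted p followed the size of a difference more than a gene's spread between tumors. For example, Krt6a (-0.82) and Krt77 (0.85) had adjusted p of 0.20 and 0.11 in limma. Before centring, Krt6a measured 3.95, 8.45 and 2.88 in tumors 23, 24 and 25, and Krt77 2.91, 2.75 and 2.49. The list means taken off were 8.18, 7.37 and 7.89, so the wide spread of Krt6a remained. The passes of Krt14 and Krt17 therefore do not show that the tumors moved together.

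The stress keratins, which replace the resting keratins in wounds and plaques of stratified epithelium, followed tumor 24 as well. Krt17, a type I keratin of this group, measured 9.39, 10.78 and 7.06 in tumors 23, 24 and 25, against 9.29, 7.59 and 8.96 in wild-type cells. Krt6a, its type II partner, measured 3.95, 8.45 and 2.88 in tumors, against 6.27, 5.94 and 8.61 in wild-type cells. Krt16, also a partner of the Krt6 proteins, measured 4.13, 6.72 and 3.85 in tumors, against 5.21, 5.77 and 5.64 in wild-type cells. For Krt17 and Krt16 tumor 24 lay above every wild-type array, and for Krt6a it lay within the wild-type range, just under replicate 4. Krt6a and Krt16 in tumors 23 and 25 lay below every wild-type array.

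None of the 4 stress keratins passed, with adjusted p of 0.76 for Krt17, 0.43 for Krt6a, 0.58 for Krt16 and 0.89 for Krt6b in limma, and their median difference was -0.37. Without tumor 24, Krt16 passed downward (-1.55, adjusted p of 0.033 in limma), Krt6a measured -3.52 without passing, and Krt14 and Krt17 measured lower in tumors (-0.03 and -0.39) without passing. Krt6b lay above the mark only in tumor 24 (3.55, against a mark of 3.45 on that array). Krt6a and Krt6b are close copies of each other, and the files do not show how far their probes share signal.

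**Figure D3:**
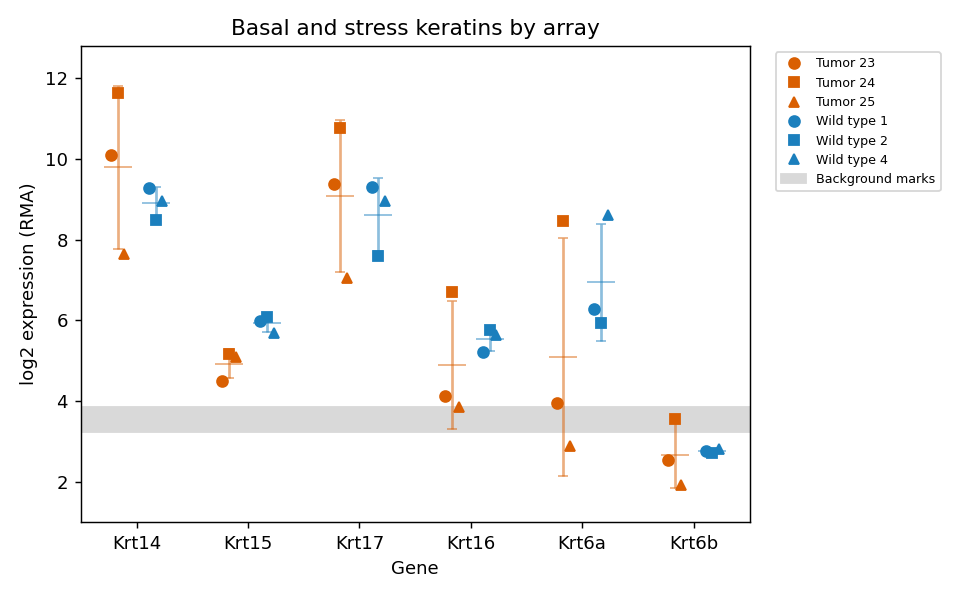
Log2 expression (RMA) of the 2 basal and 4 stress keratins on each array, tumors left of wild type for each gene; crossbars and whiskers are group means ± SD (n = 3 each) and the grey band spans the background marks. Tumor 24 (square) is the highest tumor for all 6 genes, and tumor 25 (triangle) the lowest for 5 of them.

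Among the tumors, all 6 basal and stress keratins were highest in tumor 24, where 32.3% of all genes were. The level in tumor 24 minus the mean of tumors 23 and 25 was 5.04 for Krt6a, 2.77 for Krt14, 2.72 for Krt16, 2.56 for Krt17, 1.31 for Krt6b and 0.38 for Krt15. These values lay at percentiles of 83.0 (Krt15) to 99.99 (Krt6a) of all genes. For the luminal pair the same quantity was -2.48 for Krt18 and -1.54 for Krt8, at percentiles of 0.32 and 2.4. In tumor 24 Krt8 and Krt18 and the basal and stress keratins therefore lay on opposite sides of the other tumors. Krt19 and Krt7 did not follow Krt8 and Krt18. Krt19 was at 0.86 (percentile 93.7), on the side of the basal keratins, and Krt7 was at -0.07 (percentile 47.8). This describes 1 array against a pair of others, and no test was made of it. The map of each tumor against the wild-type mean shows the pattern gene by gene.

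**Figure D4:**
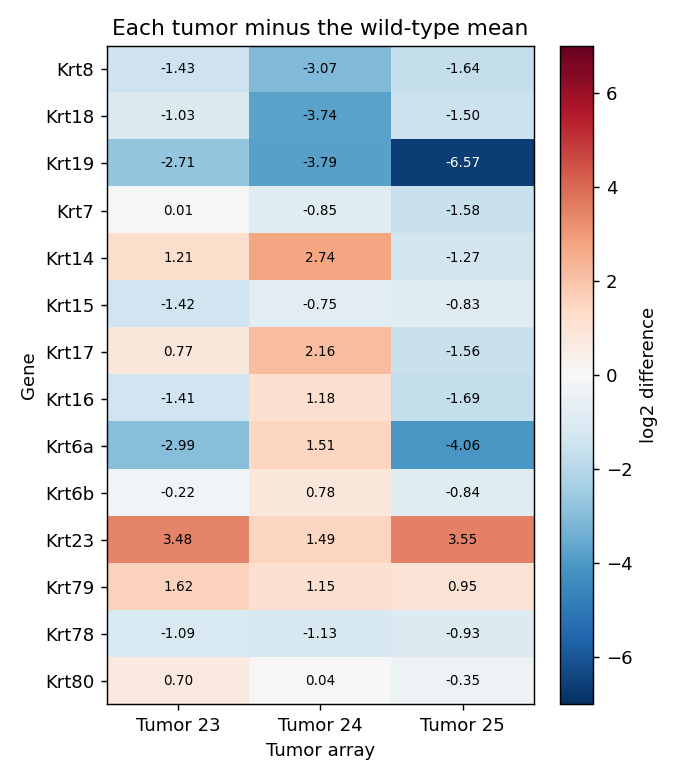
Log2 level of 14 keratins in each tumor minus the mean of the 3 wild-type arrays (colour and printed value). Tumor 24 has positive values for Krt14, Krt17, Krt16, Krt6a and Krt6b and the lowest values for Krt8 and Krt18; Krt23 and Krt79 are positive in all 3 tumors.

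The spread between tumors was wide for these genes. The median SD over the 6 basal and stress keratins was 1.73 between tumors and 0.35 between wild-type arrays, beside 0.28 and 0.27 over all genes. The tumor SDs of Krt6a (2.96), Krt14 (2.02), Krt19 (1.99) and Krt17 (1.88) lay above the 99th percentile of all genes. Among wild-type arrays Krt6a had the highest SD of the keratins (1.45), with 8.61 in replicate 4 against 6.27 and 5.94 in the other wild-type arrays.

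Desmosomes tie keratin filaments to the cell border, and their genes were examined as a list of 14. None passed, their median difference was -0.07, and 9 of 14 were highest in tumor 24. Of the members with the largest differences, the desmosomal cadherin Dsg3 of stratified epithelium measured 4.50, 8.52 and 3.08 in tumors, against 3.24, 3.35 and 3.05 in wild-type cells. Dsg2, the cadherin of simple epithelia, measured 6.06, 5.94 and 4.99 in tumors, against 6.64, 8.06 and 7.59 in wild-type cells. Dsc3 and Pkp1, partners of Dsg3 chosen after their values were seen, measured 7.25 and 8.02 in tumor 24 and no more than 2.78 and 5.85 in the other tumors. Their wild-type values ran up to 3.21 for Dsc3 and up to 5.57 for Pkp1, so that tumor 24 lay furthest above the wild-type arrays for Dsg3, Dsc3 and Pkp1.

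The cornified envelope list covers the proteins that late keratinocytes cross-link under their membrane. Of its 16 genes, 13 were highest in tumor 24 among the tumors, and its mean was 3.55, 4.58 and 3.51 in tumors 23, 24 and 25, against 4.39, 4.51 and 4.49 in wild-type cells. Its members went both ways in tumor 24. The transglutaminase Tgm1, which does the cross-linking, fell by 3.25 ± 0.29 (SE, adjusted p of 0.010 in limma), and the other 15 did not pass; the median difference was -0.49. The small proline-rich envelope protein Sprr1a, chosen after its values were seen, followed Krt6a: it measured 2.75, 7.29 and 2.36 in tumors, against 7.46, 7.85 and 8.99 in wild-type cells. Other members were picked after their values were seen too. In tumor 24, involucrin (Ivl), an early envelope protein, measured 5.65, Calml3 6.05, Krtdap 4.52 and the protease Casp14 3.95, while the highest wild-type values were 3.49, 3.68, 3.30 and 2.94 in that order. None of these passed (limma, adjusted p from 0.26 to 0.82). Loricrin (Lor) and filaggrin (Flg), of the late epidermal layers, lay at or below 2.96 in all tumors.

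Of 11 measured genes of hemidesmosomes and keratin linkers none passed, with a median of -0.70. Their largest differences were those of Pof1b (-2.45 ± 0.81, SE), an actin-binding protein found at epithelial junctions, and of the linker plectin, Plec (-1.11 ± 0.26), with adjusted p of 0.13 and 0.068 in limma. Among 20 measured transcription factors linked to keratin gene expression or its loss, Klf5, a factor of epithelial growth, fell by 2.98 ± 0.29 and Elf5, a factor of the alveolar lineage, rose by 1.90 ± 0.28 (adjusted p of 0.012 and 0.026 in limma), and the other 18 did not pass. The largest difference of this list, that of Twist1 (3.05), was among those that did not pass (limma, adjusted p = 0.056). Twist1 measured 7.26, 5.90 and 8.66 in tumors 23, 24 and 25, against 4.12, 4.13 and 4.43 in wild-type cells. Trp63, whose protein acts on basal keratin genes, measured 3.72, 6.93 and 4.50 in tumors, against 3.93, 3.41 and 4.14 in wild-type cells. It too was highest in tumor 24. Of 15 measured intermediate filament genes other than keratins none passed; vimentin (Vim) measured 8.04, 7.35 and 8.72 in tumors, against 6.77, 7.23 and 6.67 in wild-type cells. Desmin (Des), the muscle filament, measured 9.96, 3.97 and 4.92 in the tumors, against 4.56, 3.99 and 4.05 in wild-type cells.

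Lists of other cell types were read beside tumor 24. Its fibroblast mean was the highest of the 6 arrays (7.37), its skeletal muscle mean of 3.75 (8.64 in tumor 23, 5.96 in tumor 25) lay within the wild-type range of 3.67 to 3.83, and its mean over 10 myoepithelial genes other than keratins was 5.76, beside 5.82 and 5.70 in the other tumors and 5.70, 5.31 and 5.67 in wild-type cells. Of the myoepithelial list only the smooth muscle myosin Myh11 passed, and it fell by 1.40 (adjusted p of 0.030 in limma); the smooth muscle actin Acta2 measured 7.32, 7.79 and 6.35 in tumors, against 7.92, 7.04 and 7.77 in wild-type cells. Of 8 endothelial genes Vwf fell by 1.01 and the other 7 did not pass, and none of 12 skeletal muscle, 7 adipocyte or 8 lymphocyte genes passed. The largest muscle differences were those of Atp2a1 (4.07) and Mylpf (3.49), and the largest lymphocyte ones those of Cd2 (-0.60) and Cd8a (-0.45). In the adipocyte list they were Fabp4 (-2.87) and Plin1 (-0.54). Fabp4 measured 8.22, 7.08 and 6.30 in tumors, against 10.75, 10.84 and 8.61 in the sorted wild-type cells (limma, adjusted p = 0.082). Of 13 housekeeping genes, Gapdh rose by 1.08 and 12 did not pass, with a median of 0.88. The part of these other cells in the keratin differences was not tested.

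**Figure D5:**
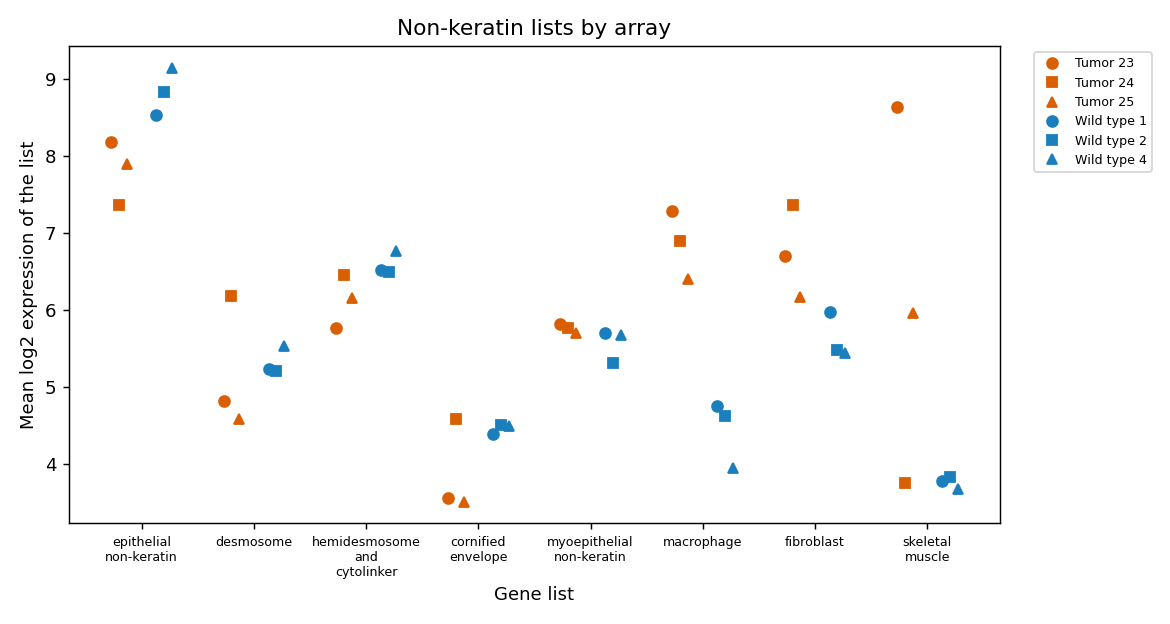
Mean log2 expression (RMA) of 8 gene lists without keratins on each array, tumors left of wild type for each list. The desmosome list is highest in tumor 24 (6.18) and the cornified envelope list separates tumor 24 (4.58) from tumors 23 and 25; the macrophage list is higher on all 3 tumor arrays.

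Krt23 was the keratin with the largest difference upward. It encodes a type I keratin that in human cells is induced by histone deacetylase inhibitors. It measured 7.52, 5.54 and 7.60 in tumors 23, 24 and 25, against 4.57, 3.54 and 4.03 in wild-type cells, and every tumor lay above every wild-type array. Tumors averaged 6.89 ± 1.17 and wild-type cells 4.05 ± 0.52 (SD, n = 3 each), a difference of 2.84 with a 95% confidence interval from 1.42 to 4.26 and an adjusted p of 0.054 in limma. It passed without tumor 24, where the difference was 3.51 with an adjusted p of 0.015 in limma. With all 6 arrays it passed in limma under the filter on dim genes (adjusted p of 0.011), the trended robust prior (0.034), array weights (0.032) and both centrings (0.019 for housekeeping, 2.1e-11 for epithelial). It did not pass with repeated quantile normalization (0.058), cyclic loess (0.061) or averaging of probe sets (0.056). The adjusted p under epithelial centring does not measure the spread between tumors, as described above for Krt14. Krt23 was lowest in tumor 24, opposite to the basal and stress keratins, and its wild-type value of replicate 2 lay below the mark.

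Krt79, a type II keratin that in mouse skin marks the upper hair follicle and sebaceous duct, rose in tumors. It measured 6.30, 5.82 and 5.62 in tumors, against 4.85, 4.66 and 4.52 in wild-type cells. The groups did not overlap, with an SD of 0.35 over tumors (percentile 58.4 of all genes) and 0.16 over wild-type arrays. The difference was 1.24 ± 0.23 (SE) or 2.36-fold (limma, adjusted p = 0.042). The call was lost without any 1 of the 6 arrays (adjusted p from 0.054 to 0.12), and also with repeated quantile normalization (0.91), cyclic loess (0.97) and centring on housekeeping genes (0.62), where the adjusted p was 0.096, 0.085 and 0.15 in limma. It was lost too with a trended robust prior (adjusted p of 0.061 in limma).

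Krt78, a type II keratin of stratified epithelium, fell. It measured 3.54, 3.50 and 3.70 in tumors, against 4.71, 4.83 and 4.37 in wild-type cells, a difference of -1.05 ± 0.19 (SE; limma, adjusted p = 0.039). The tumor values lay just above the background marks of their arrays, which were 3.24, 3.45 and 3.41. This call too was lost without any 1 of the 6 arrays, at adjusted p from 0.061 to 0.12, and when arrays were centred on the epithelial list (-0.02). Krt80, a type II keratin found in many epithelia, measured 5.55, 4.89 and 4.50 in tumors, against 4.20, 4.99 and 5.34 in wild-type cells, and the groups overlapped (adjusted p of 0.83 in limma). Centred on the epithelial list it passed upward (1.16, limma, adjusted p = 0.030), a call with the limit given above for Krt14.

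The epidermal suprabasal keratins were at or near background in both groups. Krt10, the type I keratin of differentiating epidermis, measured 4.05, 4.11 and 4.71 in tumors, against 4.58, 4.45 and 4.58 in wild-type cells, above the mark on all 6 arrays. Its partner Krt1 measured 3.12, 3.29 and 2.93 in tumors, below the mark on each, against 3.39, 3.72 and 3.73 in wild-type cells. Krt2, Krt9 and Krt77 lay below the mark on all 6 arrays. None of the 5 passed, and their differences ran from -0.50 to -0.18 with a median of -0.25. The median of the 1105 olfactory receptor genes was -0.25 as well, and 88.0% of those were lower in tumors. In tumor 24, with its high Krt14, Krt17 and Krt6a, neither Krt1 (3.29) nor Krt10 (4.11) was raised above the wild-type arrays.

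The remaining keratins lay mostly near background. Of the 24 hair keratins, which build the hair shaft and its inner root sheath, 23 had lower means in tumors, with a median of -0.27, close to that of the olfactory receptor genes. Their differences ran from -1.17 (Krt36) to 0.03 (Krt75), and none passed. Of those above the mark in all arrays of a group, the hair shaft keratin Krt33a was 0.82 lower (adjusted p of 0.075 in limma), Krt36 1.17 lower, Krt83 0.70 lower, Krt34 0.55 lower and Krt81 0.46 lower; Krt33b, Krt35, Krt40 and Krt73 differed by 0.03 to 0.23. Krt42 (-0.14) and Krt88 (-0.25) lay above the mark on all 6 arrays without passing. Of the mucosal keratins Krt4 measured 1.28 ± 0.37 (SE) lower (limma, adjusted p = 0.10), with tumor values below the mark, and Krt13, its partner, lay below the mark on all 6 arrays.

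Over the whole family, 47 keratins (88.7%) had lower and 6 higher means in tumors. A lower mean was found for 58.3% of all genes and for 88.0% of olfactory receptor genes, so the count is near that of genes at background. Of the 28 keratins not above the mark on all arrays of a group, 27 had lower means. The groups did not overlap for 23 of the 53, against 36.4% of all genes. Of these, 2 were higher (Krt23 and Krt79), against 14% of all genes, and 21 were lower, against 22.4% of all genes and 32.1% of olfactory receptor genes. Type I and type II keratins had like medians, -0.32 over 28 and -0.29 over 25.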

How the data were processed

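Per the submitters' processing notes, the authors used RMA and oligo to make the deposited log2 values, 1 per probe set and array. RMA corrects background, normalizes quantiles and summarises probes, and it compresses differences near background. Versions are not stated there, and the genome build is not given in the sources used here. Of 41345 probe sets, the platform annotation named 1 gene for 23521, several for 1814 and none for 16010; 23328 of the 23521 matched RefSeq GRCm38.p6 by Entrez identifier. The brightest probe set stood for each of 22180 genes.

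A linear model (limma 3.58.1 under R 4.3.3, lmFit then eBayes) set the 2 groups against each other, two-sided, without covariates or a filter. Adjusted p is Benjamini-Hochberg over all 22180 genes and passes below 0.05. Each difference subtracts the wild-type from the tumor mean on the log2 scale. The step was tested on simulated data. Motifs were searched in RefSeq promoter windows.

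The members, gene lists, rules and background mark were chosen with earlier results of these data known. All simple, basal, stress and epidermal keratins were named, and any other that passed or lay above the mark in all arrays of a group. Of each other list the 4 largest called changes were named or, with none, the 2 largest differences. Further names are mostly stated as such, and others outside this rule include Epcam, Trp63, Acta2 and Rab25. Alternatives were a filter keeping genes that average 5 or more, averaging of probe sets, 2 normalizations, 2 centrings, a trended robust prior, array weights and leaving out each array. Arrays give no read depth, and their number limits the precision; neither scan dates nor detection calls entered. Replicate numbers are not shared between groups.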

Additional observations from a re-analysis of the deposited data

How the results depend on the processing

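Limits come from 3 arrays in each group and from scaling. In limma, 867 genes passed, 1324 with array weights, 7523 after centring on the housekeeping list, 9033 after centring on the non-keratin epithelial list, and 72 to 1200 when 1 array was left out (lowest without wild-type replicate 4, highest without tumor 24). Centring subtracts 1 value from every gene of an array: the median over all genes, -0.12 as reported, became -0.74 (housekeeping) and 0.91 (epithelial), so calls under it are relative to those lists. After epithelial centring, adjusted p followed the size of a difference more than a gene's spread between tumors. Of the calls, 64.5% were higher in tumors, 44.3% after quantile normalization again, 52.3% after cyclic loess, 7.28% after housekeeping and 98.2% after epithelial centring.

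Of the keratins, 1 was called higher, 2 with the filter on dim genes, 2 with array weights, 6 after epithelial centring, and 0 with repeated quantile normalization or cyclic loess (2 at an unadjusted p under 0.05 in each, limma). The count was 0 to 1 with 1 array left out. Called lower was 1, 2 with the filter on dim genes, 4 after quantile normalization again, 3 after cyclic loess, 3 with a trended robust prior, 31 after housekeeping centring, and 0 to 1 with 1 array left out. Krt8 passed downward under the filter, both normalizations, housekeeping centring and the trended robust prior, but in none of the 6 leave-one-out sets. The simple keratin median of -2.05 kept its direction in all alternatives: it was -1.02 after epithelial centring, -2.67 after housekeeping centring, and -2.36 to -1.26 (without tumor 24) when 1 array was left out. The basal median of -0.05 was 0.97 after epithelial centring, and -0.58 (without tumor 24) to 0.44 (without tumor 25) when 1 array was left out. The epidermal suprabasal median of -0.25 was -0.017 after quantile normalization again, -0.025 after cyclic loess, -0.87 after housekeeping centring, 0.78 after epithelial centring, and -0.30 to -0.19 when 1 array was left out; the filter left none of this class. No paired analysis was possible because the groups share no replicate numbers.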
